A study of Mus musculus with 8 samples.

Results

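The 10 genes considered here mark dendritic cells and their subsets, and were followed in bulk tumor RNA. They are Itgax, Flt3, Zbtb46, Batf3, Xcr1, Clec9a, Itgae, Cd209a, Siglech and Fscn1. They were chosen by gene symbol, and all 10 of 10 were found among the 27179 genes of the deposited table. The RNA came from 8 subcutaneous tumors of C26, a mouse colon carcinoma line that causes cachexia, grown in male CD2F1 mice and collected once the animals had lost over 15% of body weight. The 4 cxC26 scr tumors arose from cachectic C26 cells with a scrambled guide RNA, and the 4 cxC26 IL6KOs1 tumors from a CRISPR/Cas9 subclone of the same line that lacks IL-6. By the study's methods, more cells were injected for the subclone and its tumors started to grow later. All cxC26 IL6KOs1 tumors descend from 1 clone, so the loss of IL-6, the clone and the longer growth cannot be told apart. The comparison asks how disruption of IL-6 in the tumor cells went along with the abundance of dendritic cell transcripts in the tumor.

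Dendritic cells take up antigen in tissue and present it to T cells. Conventional dendritic cells fall into type 1 cells (cDC1), which cross-present antigen to CD8 T cells and depend on Batf3 and Irf8, and type 2 cells (cDC2), which mainly prime CD4 T cells. Plasmacytoid dendritic cells are specialised in type I interferon secretion, and maturing dendritic cells of either conventional type migrate to lymph nodes. In tumors, cDC1 are known for carrying antigen to draining nodes and for attracting T cells.

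Depth ranged from 14158989 to 17048062 gene-assigned reads per tumor, so that 1 read was worth between 0.0599 and 0.0722 CPM (counts scaled to a common library size). The targeted gene Il6 had between 326 and 438 reads in cxC26 scr and between 56 and 86 in cxC26 IL6KOs1 tumors. Leukocyte transcripts were more abundant in the latter: all 6 pan-leukocyte genes examined rose, beside 19.1% of all tested genes. Ptprc, which encodes the leukocyte antigen CD45, rose by 1.03 on the log2 scale (SE 0.265, n = 4 per group, limma adjusted p = 0.00954). The tumor cxC26 IL6KOs1-1 stood apart, with 2897 Ptprc reads against 812, 1438 and 1662 in the other tumors of its group. In bulk tissue, fewer cells of a type and less RNA per cell cannot be told apart. The labels do not tie the tumors to individual mice, and p-values measure the spread between these tumors.

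Zbtb46, Itgax and Fscn1 fell in cxC26 IL6KOs1 tumors, the first to 18.7%, the second to 26.9% and the last to 72.4% of the cxC26 scr level. Itgae, with only 18 to 36 reads per tumor, was just above the level needed for testing and did not pass. The other 6 genes, among them the cDC1 receptors Xcr1 and Clec9a, were below that level, also with at most 36 reads in any tumor. Thus 4 of the 10 genes passed the filter (at least 1 CPM in at least 4 of 8 tumors), of which 3 were called lower at an adjusted p under 0.05, beside 20.7% of all 13262 tested genes. None of the 4 was called higher, beside 19.1% of tested genes, with 0 higher at an unadjusted p under 0.05 and 0 by limma with voom weights. The median log2 fold change was -1.18 over the 4, against -0.00 over all tested genes. In a fit without a filter, for which -0.00 is not the matching value, it was 0.39 over all 10. The sign thus depended on the genes with few reads.

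**Figure D1:**
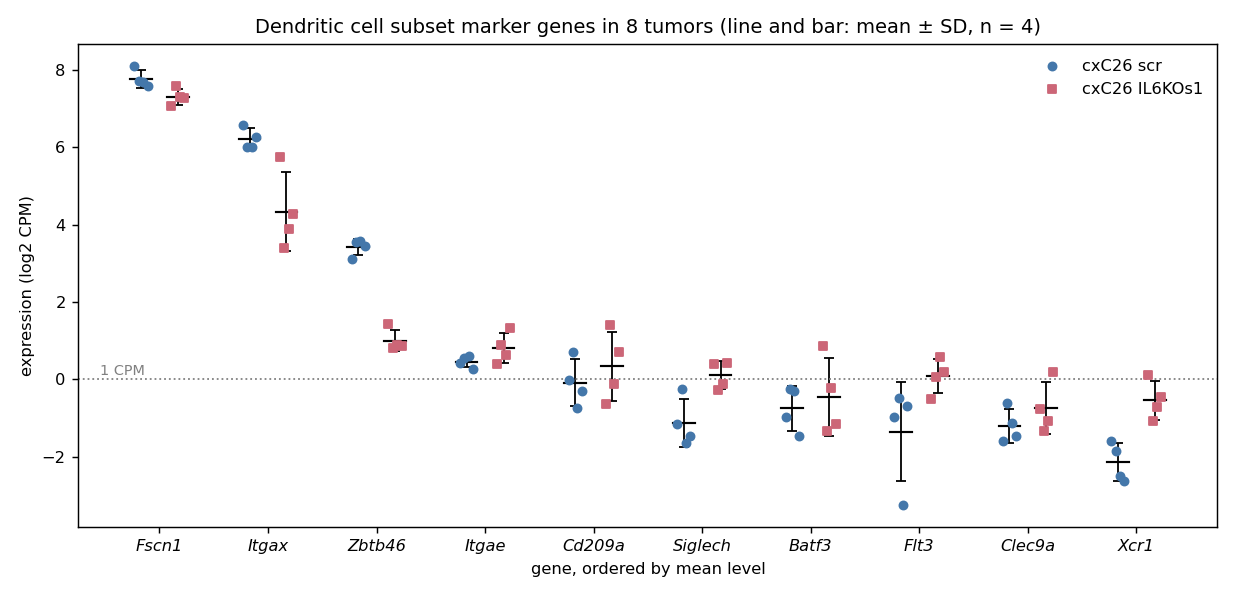
Expression of the 10 dendritic cell genes in each tumor, as log2 CPM on the y axis (not corrected for gene length), with each point a tumor and each bar a group mean. Itgax and Zbtb46 separate the groups downward, Xcr1 separates them upward, and the remaining genes overlap.

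Corrected for exon length, Fscn1 was the most abundant of the 10, with a mean of 73.5 RPKM (CPM per kilobase of exon) in cxC26 scr and 53.1 in cxC26 IL6KOs1 tumors. Itgax followed with 15.8 and 5.15 RPKM, and Zbtb46 with 1.27 and 0.239 RPKM. The other 7 were below 1 RPKM in both groups, down to Xcr1 at 0.0531 and 0.161 RPKM.

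The sequences before a listed start of the genes that fell most, Itgax and Zbtb46, are shown. They were picked after the motif search, because they shared a match that the other members with a sequence did not have. They are the 250 bases before the gene start listed by RefSeq (GRCm38.p6), 5′ to 3′ on the gene's strand, with the match to the AP-1 motif TGANTCA in capitals.
Itgax, chr7:128129300-128129549, plus strand: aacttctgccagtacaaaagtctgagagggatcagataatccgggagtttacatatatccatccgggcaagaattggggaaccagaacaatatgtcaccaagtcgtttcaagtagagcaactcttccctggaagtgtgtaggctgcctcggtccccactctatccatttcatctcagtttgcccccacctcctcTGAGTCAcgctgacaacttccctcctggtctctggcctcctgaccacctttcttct
Zbtb46, chr2:181424389-181424638, minus strand: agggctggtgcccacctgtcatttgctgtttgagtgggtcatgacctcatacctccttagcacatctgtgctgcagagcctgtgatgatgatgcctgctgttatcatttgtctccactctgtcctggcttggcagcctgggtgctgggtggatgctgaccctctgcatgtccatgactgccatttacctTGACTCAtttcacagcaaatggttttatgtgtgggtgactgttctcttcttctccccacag
The match began 56 bases before the start in Itgax and 61 in Zbtb46. The listed start lies inside the span given for the gene in both cases, shortly after its beginning in Itgax and far within it in Zbtb46, so neither is the outermost one. The Zbtb46 window may therefore not be a promoter. Sequences were found for 9 of the 10 genes, and both strands were searched. Of all 32851 windows of this length, 6.75% held TGANTCA. The STAT motif TTCNNNGAA, in 7.02% of windows, was matched in Batf3 and Siglech. The PU.1 motif GAGGAA, in 23.3%, was matched in Batf3. The interferon-stimulated response element, in 2.98%, was matched in 0 of the 9. A match describes letters only, and binding was not measured.

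Zbtb46, a zinc finger transcription factor that marks committed conventional dendritic cells and is also expressed in endothelium, lies on chromosome 2 (181371009 to 181493262, GRCm38). It had 144, 190, 170 and 167 reads in cxC26 scr and 43, 24, 29 and 26 in cxC26 IL6KOs1 tumors. On the log2 CPM scale these were 3.11, 3.56, 3.58 and 3.44 against 1.42, 0.82, 0.90 and 0.87. The groups were widely apart, and the highest cxC26 IL6KOs1 tumor, cxC26 IL6KOs1-1, was below the lowest cxC26 scr tumor. The log2 fold change was -2.42 (SE 0.199, 95% interval -2.86 to -1.98, limma adjusted p = 6.95e-06), which is 5.35-fold lower. An exact permutation test gave p = 0.0286, the smallest that 4 tumors against 4 can give.

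Endothelial genes were examined beside Zbtb46. Of the 6 in the list, 0 were called, 0 had an unadjusted p under 0.05 and 0 were called by limma with voom weights. Their summed level was between 99.4 and 154 CPM in cxC26 scr and between 113 and 141 CPM in cxC26 IL6KOs1 tumors, and none was at 0 reads. The 3 tested genes that overlap Zbtb46 fell less: Zgpat by 0.40 (adjusted p = 0.0285), Slc2a4rg-ps by 0.46 (adjusted p = 0.0466) and Lime1 by 0.35 (adjusted p = 0.0489) on the log2 scale in the same limma fit. The strand setting of the counting is not given in the sources used here, and reads of overlapping genes may be shared. The part of endothelium, the tumor cells and shared reads in the Zbtb46 level was not tested.

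Itgax, on chromosome 7 (128129526 to 128150657), encodes CD11c, the integrin alpha chain by which dendritic cells are usually gated and which macrophages and NK cells can also carry. It had 1603, 1043, 919 and 1199 reads in cxC26 scr and 880, 145, 233 and 282 in cxC26 IL6KOs1 tumors. The respective log2 CPM values were 6.59, 6.01, 6.01 and 6.28 against 5.76, 3.39, 3.89 and 4.29. All cxC26 IL6KOs1 tumors were below all cxC26 scr tumors, but cxC26 IL6KOs1-1 came close to them and was 3.74-fold above the mean of the other 3 of its group. The log2 fold change was -1.89 (SE 0.387, 95% interval -2.74 to -1.05, limma adjusted p = 0.00259; exact permutation p = 0.0286), or 3.71-fold lower. Without cxC26 IL6KOs1-1 it was -2.37 (adjusted p = 4.87e-06).

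The macrophage genes moved the other way from Itgax. Of 12 macrophage and monocyte genes, 11 rose, beside 19.1% of all tested genes. Ly6c2, among the 11, was at 0.487 to 1.11 CPM in cxC26 scr tumors and passed the filter only through the other group. The exception, the efferocytosis receptor Mertk, fell by 0.36 on the log2 scale (limma adjusted p = 0.00983). Summed levels of the lists do not depend on the filter. The summed level of the 12 genes ran from 649 to 831 CPM in cxC26 scr and from 1160 to 1900 CPM in cxC26 IL6KOs1 tumors, with the highest value in cxC26 IL6KOs1-1. The 8 NK cell genes summed to between 2.08 and 6.61 CPM in cxC26 scr tumors, to 50.6 CPM in cxC26 IL6KOs1-1 and to between 14.0 and 14.5 CPM in the other 3 cxC26 IL6KOs1 tumors. Of 6 tested 5 rose, but 3 of these (Klrk1, Klrd1 and Nkg7) were under 1 CPM in every cxC26 scr tumor and passed the filter only through the group where they were high. The others, Gzmb and Prf1, were under 1 CPM in part of the cxC26 scr tumors, so the count is not read as a result. The same tumor also held 1480 CPM of the 7 MHC class II genes, which dendritic cells, macrophages and B cells use to present antigen, against 111 to 159 CPM in the other cxC26 IL6KOs1 tumors and 85.5 to 167 CPM in the cxC26 scr tumors. No gene of these lists was at 0 reads. In cxC26 scr tumors Itgax was at 64.5 to 96.1 CPM and Ptprc at 39.8 to 58.3 CPM. The mean RPKM was 15.8 for Itgax and 2.76 for Ptprc. RPKM depends on the length used, here all annotated exons together: 4803 bases for Itgax and 18313 for Ptprc. These values do not compare the 2 genes per transcript. The part of macrophages, NK cells, the tumor cells and the leukocyte content of cxC26 IL6KOs1-1 in the Itgax level was not tested.

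Fscn1, on chromosome 5 (142960355 to 142973189), encodes fascin, an actin-bundling protein of mature dendritic cells that is also made by many carcinoma and mesenchymal cells. It had 4608, 3414, 2959 and 2938 reads in cxC26 scr and 2198, 2646, 2502 and 2240 in cxC26 IL6KOs1 tumors. In log2 CPM this was 8.11, 7.72, 7.70 and 7.58 against 7.08, 7.58, 7.31 and 7.27. The groups overlapped at 7.58, and cxC26 scr-1 was the highest tumor. The log2 fold change was -0.47 (SE 0.129, 95% interval -0.75 to -0.18, limma adjusted p = 0.0138), while the exact permutation test gave p = 0.0571. With no filter on low values the adjusted p was 0.0511.

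The Fscn1 change was of the size of its chromosomal surroundings: the 89 tested genes within a window of 10 Mb had a median log2 fold change of -0.47, and subtracting it left 0.00. For Zbtb46 the same subtraction left -2.11 and for Itgax -1.57. Of 7 fibroblast genes 3 fell, 1 rose and 3 were not called, and their summed level was between 7780 and 10300 CPM in cxC26 scr and between 5550 and 8700 CPM in cxC26 IL6KOs1 tumors. The part of the surrounding region, the tumor cells and fibroblasts in the Fscn1 level was not tested.

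Itgae, on chromosome 11 (73090505 to 73147449), encodes CD103, the integrin alpha chain that binds E-cadherin on cDC1 of peripheral tissue and on tissue-resident T cells. It had 22, 23, 21 and 18 reads in cxC26 scr and 21, 25, 24 and 36 in cxC26 IL6KOs1 tumors. The groups overlapped, with cxC26 IL6KOs1-4 highest. The log2 fold change of 0.36 did not pass the test (SE 0.277, 95% interval -0.25 to 0.96, limma adjusted p = 0.331; exact permutation p = 0.143). The 10 T cell genes summed to between 2.67 and 5.68 CPM in cxC26 scr and between 14.4 and 25.8 CPM in cxC26 IL6KOs1 tumors. Of the 7 that were tested, 5 were under 1 CPM in every cxC26 scr tumor and the others in part of them. All 7 passed the filter only with the help of the cxC26 IL6KOs1 tumors, so their count is not given as a result.

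The remaining 6 genes did not pass the filter, each with between 1 and 36 reads per tumor, and a difference had to be large to be detectable at this depth. All 6 had a higher mean log2 CPM in the cxC26 IL6KOs1 tumors, as did 56.2% of the 7307 genes with reads under the filter. Fitted without a filter, 0 of the 6 were called by limma and 2, Xcr1 and Siglech, had an unadjusted p under 0.05. In that fit, 8.47% of 27179 genes were called lower and 7.77% higher. Of the 10 genes, Itgax and Zbtb46 had all cxC26 IL6KOs1 tumors below all cxC26 scr tumors and Xcr1 had them all above. Among the 20569 genes with reads, the former arrangement was seen for 13.3% and the latter for 13.1%.

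Xcr1, the receptor for the chemokine XCL1 and a cDC1 marker, had 5, 4, 2 and 2 reads in cxC26 scr and 17, 6, 9 and 10 in cxC26 IL6KOs1 tumors. The groups did not overlap, by a margin of 1 read, and cxC26 IL6KOs1-1 was the highest. The mean log2 CPM differed by 1.60 (unfiltered limma 95% interval 0.43 to 2.77, unadjusted p = 0.013, adjusted p = 0.0697; exact permutation p = 0.0286). Leaving out each tumor in turn gave between 1.38 and 1.78.

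Clec9a, which encodes the cDC1 receptor for actin filaments of dead cells, had 5, 10, 6 and 5 reads in the cxC26 scr and 9, 5, 7 and 16 in cxC26 IL6KOs1 tumors. Batf3, the transcription factor on which cDC1 depend, had 8, 13, 11 and 5 against 29, 5, 13 and 6 reads. Neither separated the groups, with differences of 0.46 for Clec9a (exact permutation p = 0.286) and 0.29 for Batf3 (exact permutation p = 0.629). The Clec9a difference was 0.15 without cxC26 IL6KOs1-4, and that of Batf3 was -0.15 without cxC26 IL6KOs1-1. Xcr1 and Clec9a together, as the more restricted cDC1 markers, had 10, 14, 8 and 7 reads against 26, 11, 16 and 26, so that the groups overlapped in a single pair of tumors.

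Flt3, the receptor for the growth factor that sustains dendritic cells and their precursors, had 8, 11, 1 and 9 reads in the cxC26 scr and 11, 14, 23 and 16 in cxC26 IL6KOs1 tumors. The groups met at 11 reads, and cxC26 scr-3 was far below the rest. The log2 difference was 1.43 (unfiltered limma 95% interval -0.10 to 2.97, adjusted p = 0.221; exact permutation p = 0.0571) and 0.80 without cxC26 scr-3. Its ligand gene Flt3l had between 61 and 87 reads in cxC26 scr and between 83 and 109 in cxC26 IL6KOs1 tumors, a log2 fold change of 0.38 that did not pass (adjusted p = 0.0865).

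Siglech, a lectin of plasmacytoid dendritic cells, had 7, 13, 4 and 5 reads in the cxC26 scr and 21, 11, 14 and 19 in cxC26 IL6KOs1 tumors. Only cxC26 scr-2 and cxC26 IL6KOs1-2 crossed. The difference was 1.25 on the log2 scale (unfiltered limma 95% interval 0.17 to 2.33, adjusted p = 0.121; exact permutation p = 0.0571). Cd209a, a C-type lectin of cDC2 and monocyte-derived dendritic cells, had 16, 26, 8 and 12 reads against 10, 36, 14 and 23. These overlapped throughout, with a difference of 0.42 (exact permutation p = 0.457) that was 0.07 without cxC26 IL6KOs1-2.

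**Figure D2:**
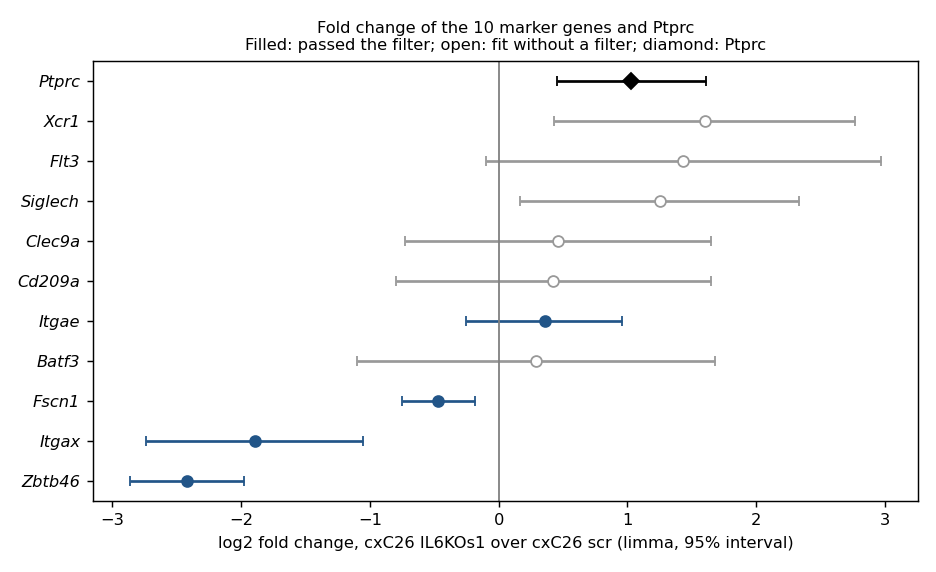
Log2 fold change (cxC26 IL6KOs1 over cxC26 scr, x axis) with its 95% interval from limma for the 10 genes and Ptprc. Filled points passed the filter, open points come from the fit without a filter, with the intervals of Itgax, Zbtb46 and Fscn1 below 0, those of Xcr1, Siglech and Ptprc above 0 and the other 5 across it.

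Since leukocyte transcripts as a whole rose, the genes with at least 10 reads in the mean of each group were also set against Ptprc in the same tumor. Because Ptprc rose, the median difference over the 13367 genes with that many reads was -1.03 on this scale, and 44.3% of them had all cxC26 IL6KOs1 tumors below all cxC26 scr tumors. The log2 CPM of Itgax minus that of Ptprc, not corrected for gene length, was 1.27, 0.42, 0.21 and 0.42 in cxC26 scr tumors and -1.72, -2.48, -2.62 and -2.56 in cxC26 IL6KOs1 tumors. The groups were apart, and cxC26 IL6KOs1-1 was again the highest of its group. The mean difference was -2.92, or 7.59-fold (0.58 ± 0.47 against -2.34 ± 0.42, SD, n = 4 each, exact permutation p = 0.0286). Itgax and Zbtb46 already separated the groups downward, and Ptprc separated them upward. Their separation and exact p on this scale were therefore fixed in advance and add no support.

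Zbtb46 relative to Ptprc went from -2.22 ± 0.16 to -5.67 ± 0.46 (SD, n = 4 each, exact permutation p = 0.0286), a difference of -3.45 or 10.9-fold. Fscn1 went from 2.13 ± 0.47 to 0.63 ± 0.87, a difference of -1.50 (exact permutation p = 0.0286), and fascin is not restricted to leukocytes. The groups did not overlap for these 3 genes, which for Itgax and Zbtb46 was fixed in advance. A large share of all genes had this arrangement, and the Fscn1 groups overlapped before Ptprc was subtracted. Itgae differed by -0.68 (exact permutation p = 0.2) and Cd209a by -0.61 (exact permutation p = 0.543), with overlap, both nearer to 0 than the median gene. Without cxC26 IL6KOs1-1 these differences were -0.27 and -0.02. With the macrophage and monocyte list as reference in place of Ptprc, Itgae differed by -0.82 (exact permutation p = 0.0286) without overlap, as did 81.1% of the 13367 genes, whose median difference was -1.17.

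**Figure D3:**
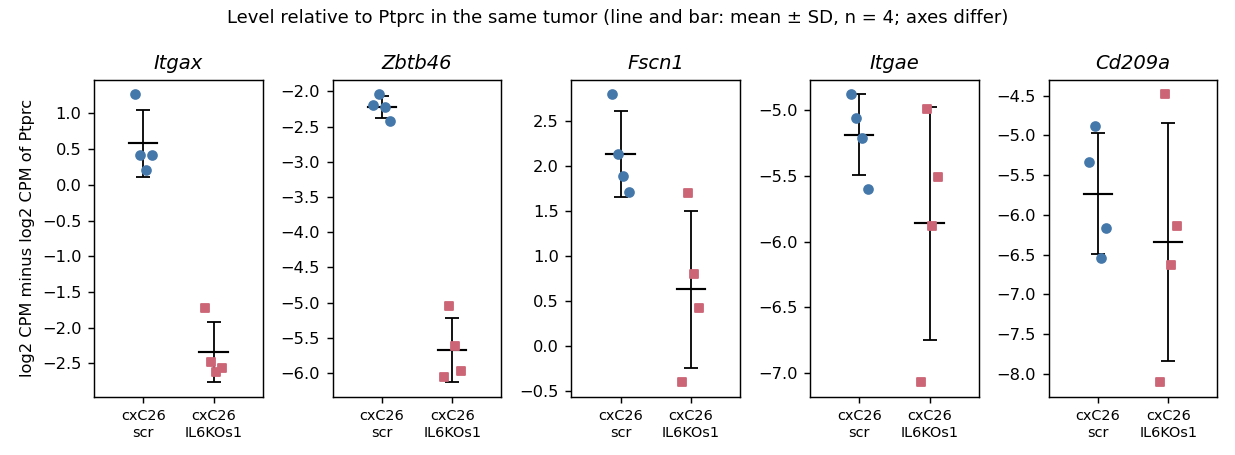
Log2 CPM of a gene minus log2 CPM of Ptprc in the same tumor (y axis), with points for tumors and bars for group means. The groups of Itgax, Zbtb46 and Fscn1 are apart, an arrangement seen for 44.3% of genes since Ptprc itself rose by 1.03, and those of Itgae and Cd209a overlap.

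The other genes of the cDC1 program did not follow Itgax and Zbtb46. Of 12 such genes 9 were tested, of which 6 rose and 3 did not pass, with a median log2 fold change of 0.81. The 3, named to complete the list, were Id2 (0.19), Cd24a (-0.09) and Snx22 (-0.45). The median was 1.17 over the 6 pan-leukocyte genes and 1.14 over the 12 macrophage and monocyte genes. The cDC1 list thus rose no more than leukocyte transcripts in general. Over all tested genes 19.1% were called higher and 20.7% lower, and the counts of the other lists stand beside the same shares. Cadm1, an adhesion molecule of cDC1 that other cells also carry, had 168, 188, 172 and 225 reads in the cxC26 scr and 914, 431, 1069 and 764 in the cxC26 IL6KOs1 tumors and rose by 2.06 (limma adjusted p = 3.04e-05). The lysosomal amidase Naaa rose by 1.66 (adjusted p = 0.000686) and Tlr3, a sensor of double-stranded RNA, by 1.11 (adjusted p = 0.0011). The most abundant, the lysosomal thioesterase Ppt1, rose by 0.56 (adjusted p = 0.000823). In none of these 4 genes did the groups overlap, while 13.1% of genes with reads had all cxC26 IL6KOs1 tumors above all cxC26 scr tumors. Cadm1, Naaa and Tlr3 were named for the largest increases, so their separation is a description. Macrophages also express several of the list, and their part was not tested.

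Among 9 tested genes of 12 in the cDC2 list, 5 rose, 1 fell and 3 did not pass (median 0.55). The inhibitory lectin Clec12a had 18, 17, 4 and 11 reads against 681, 184, 380 and 412 and rose by 5.09 (limma adjusted p = 7.25e-06). It was at 1.11, 1.08, 0.316 and 0.747 CPM in cxC26 scr, so it passed the filter only through the group where it was high. Klf4, a transcription factor also of epithelium and monocytes, rose by 1.36 (adjusted p = 5.57e-05) and the cytokine gene Ltb by 1.35 (adjusted p = 0.00442). Tnfsf9, which encodes the ligand of the costimulatory receptor CD137, went the other way. It had 1423, 1251, 1122 and 1131 reads against 260, 154, 144 and 113 and fell by 2.89 (adjusted p = 1.3e-06), with the groups far apart. Its level in cxC26 scr tumors was 73.5 to 85.3 CPM, and which cells of the tumor made it was not tested.

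The list of other genes of mature dendritic cells, which leaves out Fscn1, was mixed. Of 16 genes 11 were tested, 3 rose, 1 fell and 7 did not pass (median 0.44). The inhibitory surface protein gene Cd200 rose by 1.00 (limma adjusted p = 0.0124), the cytokine signalling inhibitor Socs2 by 0.99 (adjusted p = 0.00455) and the calcium channel subunit Cacnb3 by 0.91 (adjusted p = 0.000662). Pdcd1lg2, which encodes the checkpoint ligand PD-L2, fell by 0.93 (adjusted p = 0.0152), with overlapping groups (exact permutation p = 0.0857). The most abundant, the NF-kB subunit Relb, had a log2 fold change of 0.05 (adjusted p = 0.81). Ccr7, the receptor that guides mature dendritic cells to lymph nodes and was named after its values were seen, did not pass the filter, with 9, 11, 9 and 4 reads against 56, 23, 13 and 18.

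Of 12 genes of plasmacytoid dendritic cells other than Siglech only 5 were tested, and 3 rose and 2 fell (median 0.97). Irf7, an interferon-inducible regulator of type I interferon, rose by 2.01 (limma adjusted p = 0.00293) and the interferon-inducible Bst2 by 0.97 (adjusted p = 0.00147). The Irf7 groups overlapped (exact permutation p = 0.0571), with 440 reads in cxC26 scr-1 against 115, 82 and 88 in the other cxC26 scr tumors. The third, the respiratory chain subunit Cox6a2, was under 1 CPM in every cxC26 scr tumor and passed the filter only through the group where it was high (5, 15, 7 and 4 reads against 17, 14, 19 and 30). The transcription factors Runx2 and Tcf4, which many mesenchymal and tumor cells also express, fell by 0.39 (adjusted p = 0.00143) and 0.37 (adjusted p = 0.0153).

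Of 10 growth factors, receptors and chemoattractants of dendritic cells, 7 were tested, 3 rose and 4 did not pass (median 1.01). The stem cell factor gene Kitl rose by 1.39 (limma adjusted p = 0.00033) and the GM-CSF receptor chain Csf2ra by 1.05 (adjusted p = 0.00136). The third, the chemokine gene Ccl4, likewise passed the filter only through the cxC26 IL6KOs1 tumors, with 13, 15, 3 and 4 reads against 36, 28, 18 and 28. Xcl1, the ligand of Xcr1 and named after its values were seen, had 0, 3, 1 and 0 reads in the cxC26 scr and 33, 7, 4 and 0 in the cxC26 IL6KOs1 tumors, most of them in cxC26 IL6KOs1-1. Ccl20 was at 0 reads in every tumor.

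**Figure D4:**
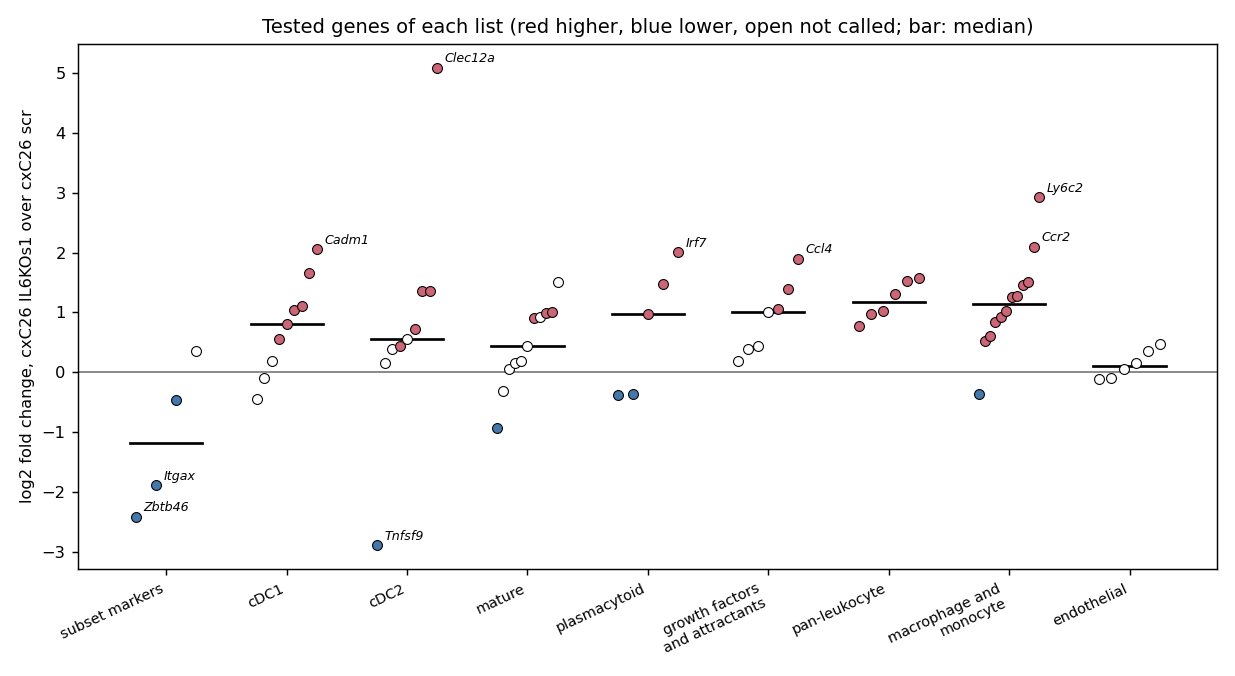
Log2 fold change (cxC26 IL6KOs1 over cxC26 scr) of the tested genes of each dendritic cell list, with a point for each gene and pan-leukocyte, macrophage and endothelial genes alongside. The cDC1 list lies mostly above 0, and Zbtb46 and Itgax among the 10 marker genes and Tnfsf9 in the cDC2 list lie lowest.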

How the data were processed

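Polyadenylated RNA of 8 tumors was sequenced after NEBNext Ultra library preparation. The authors trimmed reads with Trimmomatic, aligned them with HISAT2 to GRCm38, counted them on genes with featureCounts, normalized them with limma-voom and deposited log2 CPM for 27179 genes. The submitters' processing notes also name bcl2fastq 2.17. Annotation and strand setting are not given in the sources used here. Tumors were grouped by their titles.

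Whole reads were recovered from the log2 values, which hold an offset of 0.5 reads, and 100% were whole within 0.05 reads. Totals of 14158989 to 17048062 reads set the precision of low genes. No tumors of a group agreed within sampling noise. The 13262 genes that reached 1 CPM in 4 or more tumors were fitted with limma 3.58.1 in R 4.3.3 (lmFit, eBayes with a mean-variance trend, no covariates), with Benjamini-Hochberg adjustment over all of them and a threshold of 0.05. For single genes a two-sided exact permutation test ran over the 70 arrangements of the tumors (Python 3.11.15, scipy 1.17.1). The fit was tested on simulated data. RPKM used the exon length of each gene, and positions and promoters came from RefSeq for GRCm38.p6.

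The 10 genes and the 16 lists of other genes were chosen with earlier results of these data known. Genes named were the 10 members, Il6, Ptprc, in each list the called genes with the largest fold in each direction (up to 3) and the most abundant gene, and the 3 genes most alike to each tested member, apart from those said to be chosen after their values were seen. Some genes chosen by this rule are given only within the counts of their list. The labels link no same-numbered tumors of the groups, and their deviations from the group means correlated at between -0.0593 and 0.057, so the numbers do not pair them. Alternatives were no filter, a stricter filter, quantile normalization, median re-centring, a replicate block, no trend, voom weights, log2(CPM + 1), other leukocyte references, and each tumor left out in turn. Subtraction of the median of a 10 Mb window and correlations without cxC26 IL6KOs1-1 were chosen after seeing the data.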

Additional observations from a re-analysis of the deposited data

Results flagged for a closer look

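In the cxC26 IL6KOs1 group, cxC26 IL6KOs1-1 lay far from the other 3 tumors for Zbtb46, at 1.42 log2 CPM against 0.82 to 0.90. The same tumor stood apart for Itgax relative to Ptprc, at -1.72 against -2.62 to -2.48 on the log2 scale. For the targeted gene Il6 it was cxC26 IL6KOs1-3, at 2.46 log2 CPM against 1.99 to 2.04 in the others. The gap of each to its nearest neighbour passed the 95% critical value of Dixon's test. In all 34 groups of 4 values were examined, of which chance would single out about 1.7, and 3 were found. Without cxC26 IL6KOs1-1 the log2 fold change of Zbtb46 was -2.56, and Itgax relative to Ptprc differed by -3.13.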

How the results depend on the processing

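Of 246 values under alternative settings, 240 kept their direction and side of the threshold or moved by less than the replicate spread. The number of the 10 genes called lower was 3 under every alternative except 2 with no filter, where Fscn1 had an adjusted p of 0.0511 by limma, and 2 under the stricter filter (mean log2 CPM of 3 or more), where Zbtb46 was not tested. It was 3 with each tumor left out. With the replicate block it was 3, and 2477 genes were called higher and 2688 lower, against 2529 and 2748 without it. No paired reading follows, since the numbers do not pair the tumors. Subtracting the window median turned Fscn1 to 0.00 and moved Zbtb46 to -2.11. The macrophage list as reference gave Itgae -0.82 in place of -0.68 relative to Ptprc and separated its groups, as it did for 81.1% of genes. Median re-centring separated the groups of Siglech (exact permutation p = 0.0286), and Xcr1, separated by the exact test, had an adjusted p of 0.0697 in the unfiltered limma fit. Leaving out cxC26 IL6KOs1-1 turned the Batf3 difference to -0.15, and leaving out cxC26 scr-3 moved that of Flt3 from 1.43 to 0.80. Beyond what the alternatives' construction shows, the cause was not tested. Depth limited the 6 genes under the filter, whose intervals allow differences of over 1 log2 unit.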

Other observations

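Among the genes of other cell types, 1 of the 7 lymph node genes passed the filter. This was Cxcl13, the B cell attractant, which rose by 2.63 on the log2 scale (limma adjusted p = 0.00431). It had 47, 47, 51 and 78 reads in cxC26 scr and 510, 61, 712 and 518 in cxC26 IL6KOs1 tumors, so that cxC26 IL6KOs1-2 stayed at the cxC26 scr level. The node chemokine gene Ccl19 was at 0 reads in every tumor. Of 7 epithelial genes, 2 were tested and both rose: Krt18, a keratin of simple epithelium, by 3.20 (adjusted p = 3.02e-06) and Cdh1, which encodes the CD103 ligand E-cadherin, by 1.46 (adjusted p = 0.00251). Cldn4 was at 0 reads. The 7 B cell genes summed to between 1.38 and 2.60 CPM in cxC26 scr and between 2.38 and 10.3 CPM in cxC26 IL6KOs1 tumors, highest in cxC26 IL6KOs1-1. The only tested one was not called. In the fit without a filter 1 of the 7, Cd79b, was called higher (limma adjusted p = 0.0269), beside 7.77% of all genes. It had 28 reads in all in cxC26 scr and 145 in cxC26 IL6KOs1 tumors, and was named after its values were seen. Of 4 tested neutrophil genes 1 rose, 1 fell and 2 did not pass.

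The genes most alike to a marker gene were sought by Pearson's r of the deviations from the group means over the 8 tumors, given as a description, since tumors share depth and leukocyte content. For Itgax they were Man1c1 (0.992), Slc35f6 (0.986) and Gbp3 (0.980), with 0.811 for Ptprc. For Zbtb46 they were Dgka (0.997), Tbc1d9 (0.995) and Jak2 (0.986), with 0.794 for Ptprc. For Itgae they were Ccl25 (0.988), Snora2b (0.981) and Rab30 (0.956), with -0.311 for Ptprc. For Fscn1 they were Psd (0.998), Wnt5a (0.988) and Ybx1 (0.979), with -0.861 for Ptprc. Without cxC26 IL6KOs1-1, which has the most Ptprc, the values for Ptprc were 0.475 with Itgax, 0.502 with Zbtb46, 0.339 with Itgae and -0.850 with Fscn1 over 7 tumors. Those of the named genes were then between 0.893 (Gbp3 with Itgax) and 0.999 (Psd with Fscn1).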
